A study of Mus musculus with 6 samples.

Results

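The 4 Hox clusters of the mouse were followed by RNA-seq in epiblast stem cells that had spent 2 days in differentiation medium with serum. The members are all protein-coding genes whose symbol is Hox, a cluster letter from a to d and a number, which gave 39 of the 21974 protein-coding genes in the count tables. They were chosen by name alone, whether detected or not. Hoxa holds 11 members, Hoxb 10, Hoxc 9 and Hoxd 9, and antisense and host transcripts were left out. Epiblast stem cells are a pluripotent line with features of the gastrulating epiblast. They had been kept on a layer of irradiated fibroblasts from mouse embryos, with 20 ng/mL of Activin A and 10 ng/mL of bFGF, before differentiation as embryoid bodies.

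The 6 libraries form 2 groups of 3. One is labelled Mixl1 KO. The other, labelled Mixl1 induced, came from a line with inducible Mixl1, which encodes a homeobox factor of the primitive streak, after 24 h with doxycycline at 1 µg/mL. The labels do not say whether the knockout cells received the drug, whether both lines share a parent, how many clones were used, or which part of Mixl1 was altered. Line, Mixl1 and possibly drug therefore cannot be told apart. The samples are called triplicates with no word on separate cultures, so the spread behind every p-value is that of these libraries and may be technical. Reads on genes ranged from 17490426 to 21026423 per library. Mixl1 itself averaged 39.8 CPM in knockout libraries (SD 2.96, n = 3) and 432.5 CPM in induced libraries (SD 7.54, n = 3). CPM is the number of reads per 1000000 reads on tested genes, after TMM scaling of the libraries. All 10 epiblast markers checked were above the filter on low counts in these libraries, with 4 lower and 6 higher in the induced group.

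Hox genes encode homeodomain transcription factors that give cells along the head-to-tail axis their regional identity. They lie in 4 clusters, and members with the same number in different clusters are paralogues, descended from 1 ancestral gene. Genes at the 3′ end of a cluster, with low numbers, are switched on first, in the primitive streak, and mark hindbrain and neck levels, while genes towards the 5′ end follow later and mark trunk and tail. WNT and FGF signals, retinoic acid and the caudal (CDX) homeobox factors promote their expression, and Polycomb complexes keep them silent in pluripotent cells.

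In mm10, the Hoxa members lie on the minus strand of chromosome 6, and the Hoxb members span 173.9 kb of chromosome 11 (96194316 to 96368256, plus strand). The Hoxc members lie on chromosome 15 from 102921103 to 103036852 and the Hoxd members on chromosome 2 from 74668310 to 74765142, both on the plus strand. RefSeq promoter sequences were at hand for 22 members, 10 of them among the genes tested below. In 6 genes that were lower in the induced libraries, 7 such windows overlap no annotated exon. Those of Hoxa2, Hoxa5, Hoxb4 and Hoxb8 are shown, picked after the matches were seen so that every motif found in the 7 windows appears; the windows of Hoxa9 and Hoxa10 held only TAAT matches. Each is the 250 bases before the transcription start, 5′ to 3′ on the gene's own strand, in build GRCm38.p6. Capitals mark matches, on either strand, to TAAT, the core of homeodomain sites, to TGATTNAT, a site of HOX and PBX proteins together, to TTTATGG or TTTATTG, sites of CDX proteins, and to AGGTCA, the core site of retinoic acid receptors.
Hoxa2, chr6:52164832-52165081, minus strand: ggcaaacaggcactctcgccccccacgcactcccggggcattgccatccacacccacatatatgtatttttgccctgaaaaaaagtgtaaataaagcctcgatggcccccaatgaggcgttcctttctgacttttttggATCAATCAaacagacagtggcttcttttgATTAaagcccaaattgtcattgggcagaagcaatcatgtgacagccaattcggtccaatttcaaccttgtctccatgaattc
Hoxa5, chr6:52204588-52204837, minus strand: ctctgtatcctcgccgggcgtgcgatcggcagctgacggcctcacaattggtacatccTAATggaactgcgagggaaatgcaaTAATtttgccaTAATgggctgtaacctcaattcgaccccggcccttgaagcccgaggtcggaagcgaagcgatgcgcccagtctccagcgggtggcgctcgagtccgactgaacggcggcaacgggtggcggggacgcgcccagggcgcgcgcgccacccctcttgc
Hoxb4, chr11:96318017-96318266, plus strand: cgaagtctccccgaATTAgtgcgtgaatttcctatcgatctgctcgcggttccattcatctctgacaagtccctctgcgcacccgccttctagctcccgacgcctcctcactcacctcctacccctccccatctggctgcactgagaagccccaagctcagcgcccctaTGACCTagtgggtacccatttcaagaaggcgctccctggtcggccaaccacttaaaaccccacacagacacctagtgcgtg
Hoxb8, chr11:96281655-96281904, plus strand: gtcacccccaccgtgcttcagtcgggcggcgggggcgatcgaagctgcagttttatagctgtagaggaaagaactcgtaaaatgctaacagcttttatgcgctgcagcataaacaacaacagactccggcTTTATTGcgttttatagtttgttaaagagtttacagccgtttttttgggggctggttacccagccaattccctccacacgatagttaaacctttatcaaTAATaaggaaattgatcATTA

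Hoxa2 held a TGATTNAT match on the opposite strand, Hoxb8 a TTTATTG match, Hoxb4 an AGGTCA match on the opposite strand and Hoxa5 3 TAAT matches. Over all 24 Hox windows (a gene can have several starts), 75.0% held TAAT, against 54.9% of all 32851 promoter windows of that length. TGATTNAT was in 2 Hox windows (8.33%, against 2.82% of all), a CDX site in 2 (8.33%, against 6.51%) and AGGTCA in 6 (25%, against 14%). The palindrome of 2 TAAT cores that paired-class factors such as MIXL1 bind as dimers was in none of the Hox windows and in 0.463% of all. The Hox windows had a median GC content of 58.6%, against 52.4% for all. Matches are descriptions of letters in these windows and show no binding.

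Summed over all 39 members, Hox expression was 248.0, 245.3 and 267.4 CPM in the knockout libraries and 79.9, 95.5 and 98.7 CPM in the induced libraries. Every knockout library was thus above every induced one, and the mean was 2.78 times as high in the knockout group. Nearly all of it came from 2 clusters. Hoxa genes summed to 141.2 ± 2.95 CPM (SD, n = 3) in knockout and 29.1 ± 2.15 CPM in induced libraries, and Hoxb genes to 107.8 ± 7.78 and 59.6 ± 8.48 CPM. Hoxc genes reached 2.02 ± 0.691 and 1.49 ± 0.351 CPM, and Hoxd genes 2.61 ± 0.977 and 1.18 ± 0.260 CPM. The makeup of the summed Hox CPM, which is not corrected for gene length, differed too. Hoxa genes held 55.7% of it in the knockout group and 31.8% in the induced group, where Hoxb genes held 65.3%. In bulk RNA, fewer cells expressing a gene and less RNA per cell cannot be told apart.

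**Figure D1:**
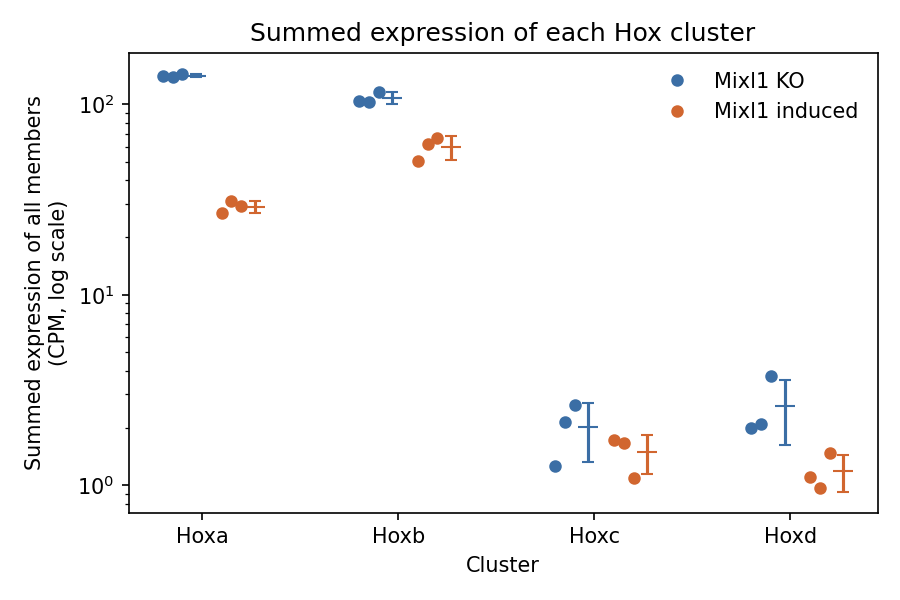
Summed expression of all members of each Hox cluster (CPM, log axis) in the 3 Mixl1 KO and 3 Mixl1 induced libraries; points are libraries, and the bar beside them is the mean with its SD. Hoxa falls from 141.2 to 29.1 CPM and Hoxb from 107.8 to 59.6 CPM, without overlap of the groups, while the groups overlap for Hoxc.

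Of the 39 members, 17 had enough reads to be tested (edgeR's quasi-likelihood test over 15091 genes, two-sided, threshold an adjusted p of 0.05). In the induced libraries 13 were lower, 1 was higher and 3 did not pass. Among all genes tested 31.6% were lower and 31.0% higher. Calls among members were thus mostly in 1 direction and those of all genes nearly even. TMM scaling centres most genes near no change, so part of that balance is built in. For 14 members every induced library was below every knockout library and for 1 above, against 33.7% and 33.3% of all genes. A fall of at least 2-fold was estimated for 12 members, against 9.67% of all genes. The median log2 fold change of the tested members, induced over knockout, was -1.66, against 0.00 for all genes. The filter keeps a gene that is high in 1 group only, so these counts describe the tested members and not all 39.

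All 8 tested Hoxa genes fell. Hoxa2, which patterns the hindbrain and the second pharyngeal arch, was at 14.2, 12.2 and 12.4 CPM in the knockout libraries and at 3.18, 3.77 and 3.71 CPM in the induced ones, a log2 fold change of -1.87 (SE 0.13, adjusted p = 3.07e-11). Hoxa3, a regulator of thymus and parathyroid formation, was at 26.5, 29.4 and 29.8 CPM against 5.64, 7.09 and 6.12 CPM (log2 fold change -2.19, SE 0.10). For both genes each induced library was far below each knockout library. Of the exonic bases of Hoxa2 and Hoxa3, 15% and 8.01% are shared with the gene Gm28308 on the same strand, and reads there may count for neither gene.

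Further along the cluster, Hoxa4 was at 6.78, 7.05 and 7.05 CPM in the knockout libraries and at 1.21, 2.29 and 2.07 CPM in the induced ones. Hoxa5, which is needed in lung and neck vertebrae, was at 18.9, 16.5 and 20.4 CPM against 3.18, 2.86 and 2.95 CPM. Both pairs of groups were well apart. Hoxa5 fell 6.18-fold (log2 fold change -2.63, SE 0.13, adjusted p = 4.47e-14) and Hoxa4 3.80-fold (-1.92, SE 0.19, adjusted p = 7.63e-09). Hoxa7, a gene of thoracic levels, had the mildest fall of the cluster, from 4.24, 4.68 and 4.74 CPM to 1.98, 1.89 and 2.24 CPM (log2 fold change -1.16, SE 0.17). Hoxa9, a 5′ gene also known for its part in blood stem cells and leukaemia, dropped to 1.72 ± 0.222 CPM (SD, n = 3) from 5.97 ± 0.992 CPM, a log2 fold change of -1.78. Hoxa10, a gene of lumbar levels and the uterus, dropped to 0.691 ± 0.185 CPM (SD, n = 3) from 2.85 ± 0.329 CPM, a log2 fold change of -2.04.

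Hoxb genes did not move as one. Hoxb1 (chromosome 11, 96365752 to 96368256), which gives the fourth hindbrain segment its identity and is an early gene of the streak, was at 55.1, 55.0 and 59.7 CPM in the knockout libraries and at 18.6, 22.2 and 27.4 CPM in the induced ones. The induced libraries were all lower but varied more. It fell 2.50-fold (log2 fold change -1.32, SE 0.10, adjusted p = 1.45e-07). Hoxb2, its neighbour in the hindbrain programme, was at 28.8, 26.8 and 29.5 CPM against 13.6, 19.6 and 20.4 CPM, a smaller fall of 1.60-fold (log2 fold change -0.68, SE 0.12, adjusted p = 0.000159). Hoxb3 was at 4.78, 4.24 and 5.05 CPM against 3.09, 4.23 and 3.99 CPM, with the groups almost touching, and did not pass (log2 fold change -0.33, 95% interval -0.66 to 0.01, adjusted p = 0.0861). Hoxb4, known for its effect on blood progenitors, fell from 1.85, 2.09 and 2.47 CPM to 0.579, 0.914 and 0.546 CPM (log2 fold change -1.66, SE 0.28).

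The 5′ side of Hoxb held both the deepest fall of the cluster and its only rise. Hoxb7 was thinly covered, with 14, 11 and 17 reads against 7, 3 and 4, and had a log2 fold change of -1.53 (SE 0.42, adjusted p = 0.00334). Hoxb8 (chromosome 11, 96281905 to 96285315), a gene of trunk levels, was at 2.83, 2.15 and 5.0 CPM in the knockout libraries and at 0.627, 0.457 and 0.601 CPM in the induced ones. Knockout replicate 3 stood above the other two, and all 3 exceeded every induced library. Its log2 fold change was -2.54 (SE 0.34, adjusted p = 3.06e-06). Hoxb9 (96271457 to 96276595), the next member in the 5′ direction, was at 7.71, 9.26 and 10.7 CPM against 9.59, 10.6 and 10.1 CPM. The groups overlapped, and it did not pass (log2 fold change 0.13, 95% interval -0.12 to 0.38, adjusted p = 0.361). Hoxb13 (96194316 to 96197447), the last member of the cluster, which marks the tail bud, was at 2.00, 1.98 and 2.21 CPM against 3.57, 3.20 and 3.39 CPM. It was higher in all 3 induced libraries (1.64-fold, log2 fold change 0.71, SE 0.19, adjusted p = 0.002).

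**Figure D2:**
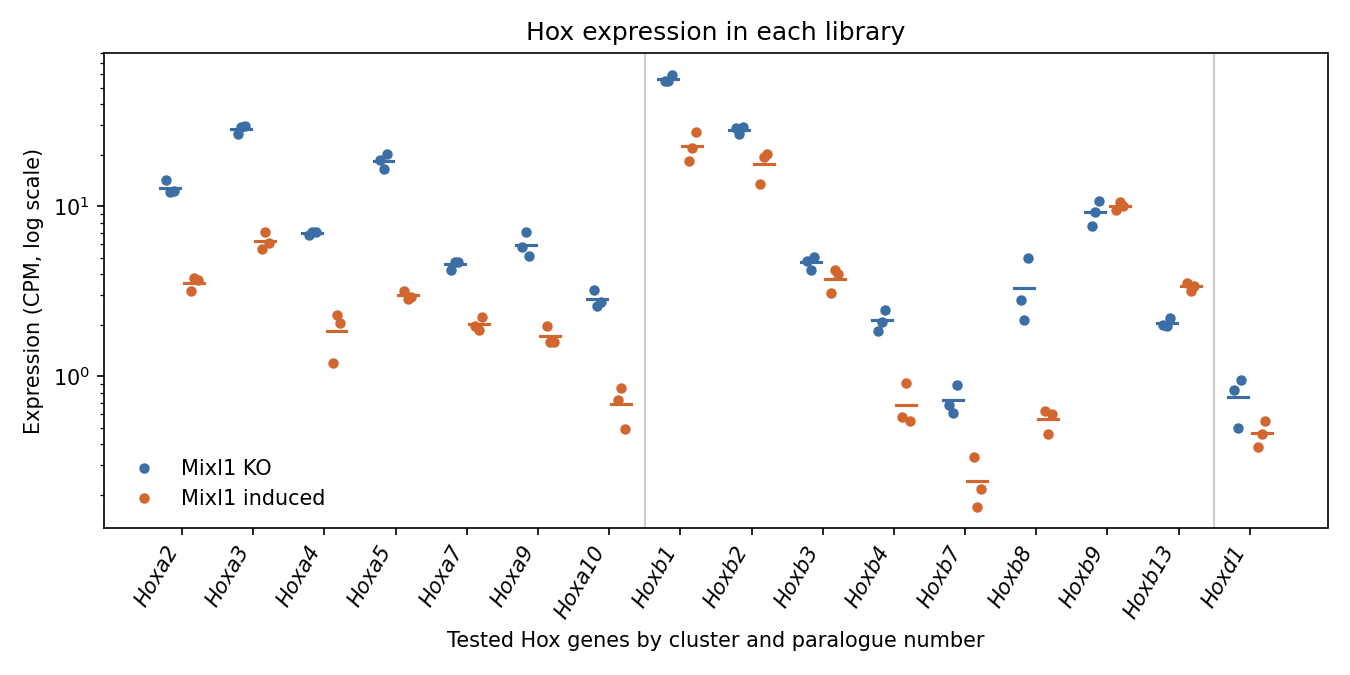
Expression (CPM, log axis) of 16 tested Hox genes in each library, with horizontal bars at the group means; genes are ordered by cluster and paralogue number. The groups are apart for every Hoxa gene shown, nearly touch for Hoxb3 and overlap for Hoxb9 and Hoxd1, and are reversed in order for Hoxb13.

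Paralogues with the same number were compared by their ratio. Of 5 numbers compared between Hoxa and Hoxb, 3 had log2 ratios, Hoxa over Hoxb in each library, that were lower in every induced library than in any knockout library. The ratio of Hoxa9 to Hoxb9 was -0.42, -0.39 and -1.07 on the log2 scale in the knockout libraries and -2.28, -2.73 and -2.67 in the induced ones, a shift of -1.93. Hoxb9 thus had more CPM than Hoxa9 in every library, and by more in the induced ones, with no correction for length. The same ratio shifted by -1.18 for paralogues 2 and by -1.86 for paralogues 3. For paralogues 4 and 7 the groups overlapped, with shifts of -0.28 and 0.46. The log2 ratio of Hoxb8 to its neighbour Hoxb9 went from -1.55 ± 0.510 to -4.18 ± 0.316 (SD, n = 3). The exact two-sided permutation test gave p = 0.10 for each shift without overlap, the smallest value that 3 against 3 libraries allow (0.15 after adjustment over the 6 ratios), and 0.40 and 0.30 for paralogues 4 and 7. The ratios were chosen after the values were seen, so these p-values restate the lack of overlap and give no independent support. Of all single genes tested, 33.7% were lower and 33.3% higher without overlap, and no such share was computed for ratios.

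**Figure D3:**
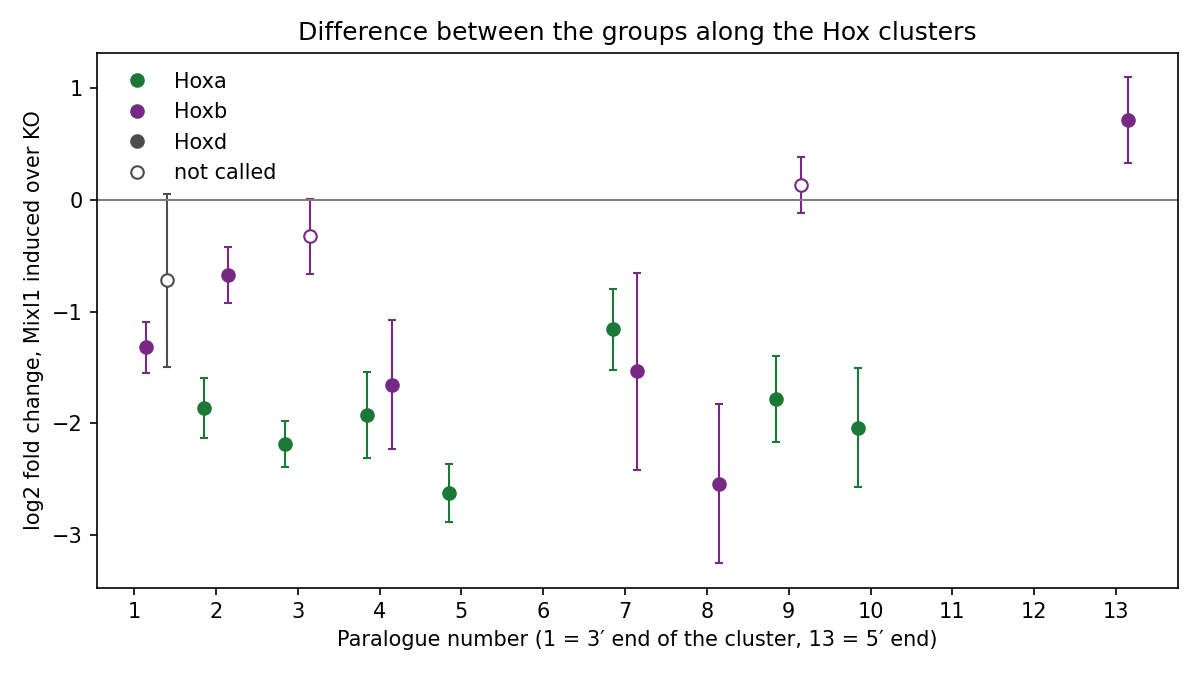
Log2 fold change, Mixl1 induced over Mixl1 KO, of 16 tested Hox genes against paralogue number; bars are 95% intervals from the edgeR fit, colours are clusters and open circles are genes that did not pass. The Hoxa points shown lie between -2.63 and -1.16, whereas Hoxb points spread from -2.54 at Hoxb8 to 0.71 at Hoxb13.

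By number, 7 of 9 tested genes of paralogues 1 to 4 fell (median log2 fold change -1.66), as did all 4 of paralogues 5 to 8 (-2.04). Of the 4 tested genes of paralogues 9 to 13, 2 fell and 1 rose (-0.82). Across the 17 tested genes, Spearman's rho between paralogue number and log2 fold change was 0.12, a description over genes that share libraries. Hoxd1, the only Hoxd gene tested, had 17, 9 and 18 reads in knockout and 8, 8 and 10 in induced libraries. Hoxd1 did not pass in edgeR (log2 fold change -0.72, 95% interval -1.50 to 0.05, adjusted p = 0.0989). With knockout replicate 2 left out it did (adjusted p = 0.0473, the lowest over its 14 alternatives). It passed in none of the other alternatives.

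Levels can be set against each other only per length, so CPM was divided by the kilobases of exon that no other gene on the same strand shares. Among the highest in the knockout group were Hoxb1 at 24.4 ± 1.16 CPM per kb (SD, n = 3), Hoxa5 at 9.91 ± 1.03, Hoxa2 at 8.58 ± 0.757 and Hoxb2 at 8.13 ± 0.407. Hoxa2 and Hoxb2 did not differ beyond their spread, and Hoxa5 and Hoxa2 did so only slightly. In the induced group Hoxb1 led with 9.79 ± 1.91 CPM per kb (SD, n = 3), then Hoxb2 with 5.12 ± 1.06, and Hoxb9 had 3.93 ± 0.201. Hoxb13 moved from rank 13 to rank 7 and Hoxb9 from 8 to 4, while Hoxa3 moved from 6 to 9. Spearman's rho between the levels of the groups was 0.84 over the 17 tested genes, so the order was largely shared. The gene models came from GENCODE M21, which may not be the annotation used for counting.

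The 22 members that were not tested had between 0 and 56 reads over all 6 libraries and at most 1.11 CPM in any library. Together they had 74, 87 and 142 reads in the knockout libraries and 72, 53 and 50 in the induced ones. Knockout replicate 3 was highest, and induced replicate 1 was close to knockout replicate 1. All 9 Hoxc genes were among them. Hoxc8 had 21 reads in knockout and 29 in induced libraries, Hoxc6 26 and 13, Hoxc4 21 and 10, Hoxc5 16 and 3, Hoxc9 11 and 10, Hoxc10 10 and 8, and Hoxc13 7 and 12. Hoxc12 had 3 and 0, and Hoxc11 none. Of Hoxd, Hoxd9 had 38 and 8 reads, Hoxd13 34 and 22, Hoxd8 17 and 8, Hoxd3 8 and 2, Hoxd4 6 and 0, Hoxd12 2 and 0, and Hoxd11 1 and 1. Hoxd10 had none. For Hoxd3 and Hoxd4, 62.3% and 52.3% of exonic bases are shared on the same strand with each other or Gm28230, and reads there may count for neither.

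The other untested members belong to Hoxa and Hoxb. Hoxa6 had 12 reads in knockout and 7 in induced libraries, between Hoxa5 with 1074 and 170 and Hoxa7 with 262 and 115. Hoxb5 had 17 and 8 reads and Hoxb6 16 and 8. Hoxa11, a limb and kidney gene, had 25 and 8, and Hoxa13, a gene of digits and hindgut, 12 and 18. A gene with no read in a group could still be present at up to 0.0523 CPM in knockout and 0.0527 CPM in induced libraries, the level at which 3 reads are due over a group; these limits cover counting error only. With no filter on low counts, 3 more members passed as lower in the edgeR fit: Hoxd9 (log2 fold change -2.17, adjusted p = 0.000421), Hoxa11 (-1.57, 0.0331) and Hoxc5 (-2.25, 0.0279).

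Strand mattered for part of Hoxb. The antisense gene Hoxb3os overlaps 27.3% of the exonic bases of Hoxb2 and 52.9% of those of Hoxb3. Counting without strand left 429 of 2636 reads of Hoxb2 (16.3%) and 186 of 482 of Hoxb3 (38.6%). In the authors' deposited table, which lists 33 members, the log2 fold change of Hoxb2 was -0.73 with a standard error of 0.24, and that of Hoxb3 was -0.02 with 0.34. The authors' deposited table had 14 members lower and 1 higher at an adjusted p under 0.05. Its values lay within 0.1 of those computed here for 14 of 17 genes tested in both, with the largest gap of 0.31 at Hoxb3. With unstranded counts, edgeR gave -0.02 for Hoxb3, -0.73 for Hoxb2, -2.06 for Hoxa4 and -0.83 for Hoxd1, against -0.02, -0.73, -2.06 and -0.83 in the authors' deposited table, for which the sources used here name no count column. Hoxb3os itself was at 10.6 ± 1.23 CPM in knockout and 17.8 ± 2.12 CPM in induced libraries (SD, n = 3; log2 fold change 0.74, edgeR adjusted p = 3.61e-06), opposite in direction to Hoxb2.

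The tested caudal genes and the listed genes of posterior signals and the streak were lower as well. Whether any of them had a part in the Hox differences was not tested. Mixl1, itself a factor of the streak, was higher (log2 fold change 3.44). So were Gsc (4.43) and Cer1 (7.49), which are listed below as endoderm markers. Of the caudal and even-skipped homeobox genes, all 3 tested fell. Cdx2 was at 180.3 ± 27 CPM in knockout and 13.2 ± 1.38 CPM in induced libraries (SD, n = 3; log2 fold change -3.77), and Cdx1 at 43.1 ± 6.68 and 1.40 ± 0.125 CPM (-4.94). Evx1, which lies just beyond Hoxa13, fell far less (log2 fold change -0.47, adjusted p = 9.68e-06). Cdx4 had 17 and 6 reads and Evx2, at the end of Hoxd, 0 and 1, and neither was tested. All 13 listed genes of posterior signals and the streak fell, with a median log2 fold change of -1.32. T, the streak factor brachyury, was at -3.14, Wnt8a at -3.49, Nkx1-2 at -2.41 and Sp5 at -1.09. Falls of caudal genes in these libraries were known when the list was drawn up, so it gives no independent support.

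Retinoic acid genes went both ways, 6 of 10 tested being lower and 4 higher (median log2 fold change -0.85). Rdh10 and Aldh1a2, which make retinoic acid, were at -1.12 and -2.27, and the receptor gene Rarg at -0.89. Cyp26a1, which degrades it, rose to 67.0 ± 3.6 from 13.8 ± 2.29 CPM (SD, n = 3; log2 fold change 2.29). Crabp1 (1.38), Rxra (0.26) and Rara (0.17) rose too, but Rara did not pass without knockout replicate 3 (0.14) or induced replicate 1 (0.12). Dhrs3, an enzyme that lowers retinoic acid output, fell (-2.59). Cyp26b1, which also degrades retinoic acid, fell too (-0.81), and so did Crabp2 (-2.09). Of 9 TALE homeobox genes, whose products bind DNA with HOX proteins, 4 were lower and 3 higher (median 0.07). Pknox2 and Pbx3 rose by 1.87 and 1.66 on the log2 scale and Meis1 by 0.27, while Meis3 (-0.90) and Pknox1 (-0.63) fell. Hindbrain segment genes had 3 of 5 higher and 1 lower, with Egr2 at 1.73, Otx2 at 1.34 and Gbx2 at 1.24.

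Chromatin regulators of Hox genes had medians near 0. Of 20 Polycomb genes 5 were lower and 8 higher (median log2 fold change 0.02). Phc1 was at -0.96, Ezh1 at -0.74, Cbx6 at -0.20, Rnf2 at -0.19 and Cbx2 at -0.19 (not passing without knockout replicate 3, -0.11, or induced replicate 1, -0.12), against Pcgf1 at 1.35, Jarid2 at 0.55 and Cbx7 at 0.42. The core subunit genes Ezh2, Eed and Suz12 did not pass, at 0.06, 0.02 and -0.07. Of 10 trithorax and activator genes 4 were higher and 1 lower (median 0.03), with Kdm6b at 0.45, Wdr5 at 0.34 and Kmt2a at 0.18 against Ash2l at -0.32. Kmt2a did not pass without any 1 of knockout replicates 1 and 3 or induced replicates 1 and 2 (0.13 to 0.16).

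**Figure D4:**
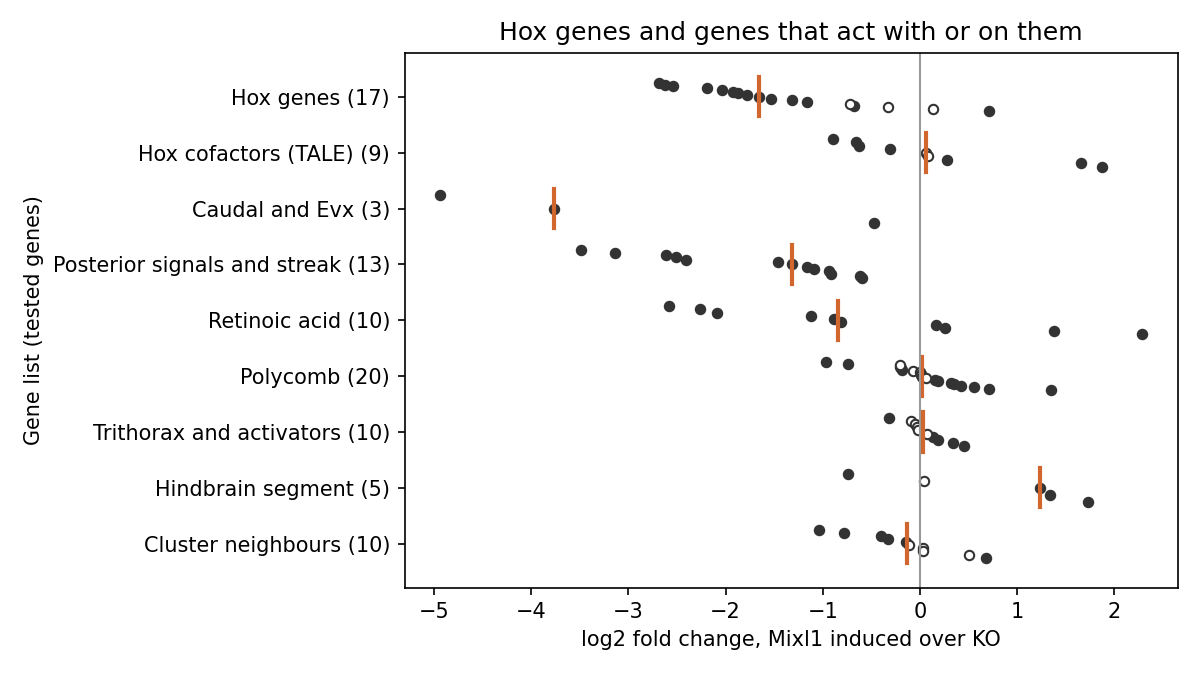
Log2 fold change, Mixl1 induced over Mixl1 KO, of tested genes in each list, with the number tested in brackets; filled circles passed an adjusted p of 0.05, open circles did not, and the vertical bar is the list's median. The Hox median of -1.66 lies beside -1.32 for posterior signals and streak genes and -3.77 for Cdx1, Cdx2 and Evx1, while Polycomb and trithorax medians lie near 0.

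The genes next to the clusters were looked at in the same way. Of 10 tested, 5 were lower and 1 higher (median log2 fold change -0.13). Skap2, beside the 3′ end of Hoxa, was at -0.78. Snx10, Hibadh and Tax1bp1, the other genes listed near Hoxa on either side, were at 0.03, -0.11 and -0.15. Tax1bp1 did not pass without induced replicate 2 (-0.10), and Snx10 and Hibadh did not pass at all. Skap1, beside Hoxb1, had 30 and 42 reads and did not pass (0.51). Near Hoxc, Calcoco1 was at -1.04, Cbx5 at -0.40 and Smug1 at -0.33. On either side of Hoxd, Mtx2 was at 0.03, which did not pass, and Lnpk rose by 0.68. Calcoco2 and Ttll6 were not tested, and Prac1 found no match in the annotation.

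Markers of other cells moved between the groups beside the Hox genes. Fibroblasts were the feeder cells of these cultures, and embryonic fibroblasts express Hox genes. Their 15 markers were all detected, and no marker of the other lists was at 0 either. Summed, they were at 1217 to 1447 CPM in knockout and 772.2 to 955.2 CPM in induced libraries. Of the 15, 9 were lower and 4 higher, with Acta2 at -2.51, Loxl1 at -1.44, Dcn at -2.64 and Pdgfrb at -2.27, while Fbln5, Col1a2, Thy1 and Lum rose by 1.25, 1.09, 0.93 and 0.70. Neural markers summed to 45.9 to 46.9 CPM in knockout and 460.4 to 475.8 CPM in induced libraries (7 of 8 tested higher, none lower). Within the neural sum, Nkx6-1 went from a mean of 7.99 to 194.8 CPM. Lateral plate markers summed to 17.1 to 17.3 and 95.3 to 103.4 CPM (5 of 6 higher, none lower). Endoderm markers summed to 17.4 to 19.8 and 114.6 to 126.2 CPM (4 of 6 higher, none lower). In that sum Cer1 went from a mean of 0.276 to 51.1 CPM, while Sox17 and Hhex did not pass (log2 fold change 0.68 and -0.06). Paraxial mesoderm markers summed to 38.7 to 43.8 and 30.6 to 39.9 CPM, with 3 of 7 lower and 2 higher. These sums hide large opposite changes. Meox1 (-3.36) and Tcf15 (-1.23) were among the lower ones, and Foxc2 (3.90) and Uncx (3.55) were higher. The part of any of these cells in the Hox differences was not tested.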

How the data were processed

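RNA was measured in 6 libraries. Their preparation kept the strand, per the labels' protocols. Raw read counts per gene and library were deposited by the authors. The tools were STAR, bcl2fastq and DESeq2, with build mm10, per the submitters' processing notes; their versions and the annotation were not given in the sources used here. Reads on the strand opposite to read 1 were used, which held 96.2% to 96.3% of stranded gene reads. Rows that name no gene took 15.1% to 17.6% of reads and stayed out of library sizes. Reads mapping to several places were not counted. The deposited DESeq2 table gives, per the file headers, a log2 fold change, its standard error and an adjusted p-value.

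Identifiers were matched without version to GENCODE M21 (GRCm38), which named 55230 of 55471. Genes passing filterByExpr were tested with edgeR 4.0.16 (R 4.3.3): TMM scaling, a robust quasi-likelihood fit with group as its only term, and Benjamini-Hochberg adjustment over all tested genes. The standard error is the log2 fold change over the square root of F; its median was 0.084. Replicates differed by more than counting noise (chi-square per degree of freedom 2.23 to 5.13). Some genes are counted in sums and totals but not reported by name here. From the other lists the text names all Cdx, Evx and cluster-neighbour genes. Elsewhere it names up to 4 members that passed with the smallest p and members that passed against the direction of most. Aldh1a2, Cyp26b1, Crabp2, Sox17, Hhex, Ezh2, Eed, Suz12 and Hoxb3os were added after their values were seen. Members and lists were chosen with earlier results of these data known. The alternatives were DESeq2 1.42.0 and limma-voom (limma 3.58.1) as tests, other scalings and filters, unstranded counts, a replicate block, a 2-fold threshold, an adjusted p of 0.01 and leaving out each library.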

Additional observations from a re-analysis of the deposited data

How the results depend on the processing

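The 13 Hox genes that were lower and the 1 that was higher stayed so with DESeq2 or upper-quartile scaling, unstranded counts, DESeq2, limma-voom and an adjusted p of 0.01. With a filter of 1 CPM in 3 libraries 12 were lower, Hoxb7 not being tested, and with no filter 16 of 37 tested. Leaving out 1 library gave 13 to 15 lower and 1 higher, with 17 to 19 tested; the additions were Hoxd9, without knockout replicate 2 or induced replicates 2 or 3, and Hoxd1. A test against a 2-fold change called 10 Hox genes lower and 0 higher, dropping Hoxa7, Hoxb7, Hoxb2 and Hoxb13 (adjusted p for a 2-fold change 0.502, 0.289, 1 and 1), and 986 genes lower and 642 higher overall. Of 253 alternative values for tested Hox genes none reversed, 248 kept their side of the threshold, 4 lost it and 1 gained it. With unstranded counts the summed CPM was 123.8 (knockout) and 26.0 (induced) for Hoxa and 83.6 and 44.0 for Hoxb, where fewer reads are counted by construction. The replicate block gave 13 lower and 1 higher Hox genes, and 4858 lower and 4789 higher overall. The labels do not say whether the replicate numbers pair the samples, and weak correlations cannot settle it. Same-numbered libraries had deviations that correlated at -0.003, 0.046 and 0.040, and not every library correlated best with its own number. Genes with few reads, such as Hoxb7 and all Hoxc and most Hoxd genes, are limited by depth.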
